A study of Macaca fascicularis with 4 samples.

Results

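The cells described here are barcodes of the embryonic day 24 (E24) library of a cynomolgus monkey (Macaca fascicularis) single-cell series that carry transcripts of dermomyotome and early muscle genes. Members were chosen by their measured UMI counts: a barcode qualified if it held 1 or more unique molecular identifiers (UMIs, each 1 captured transcript) of at least 2 of the genes PAX3, DMRT2, MYF5, MYH8, MYOD1 and MYOG. It also had to hold 0 UMIs of SOX2, PAX1 and TBX6. By this rule 429 of 10639 E24 barcodes were members, 4.03% (exact binomial 95% interval 3.67 to 4.42%), out of 27626 barcodes in the series. The other 10210 E24 barcodes were the comparison.

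The series has 4 droplet 3′ RNA libraries, of E24 at Carnegie stage 11, E28 at Carnegie stage 13, E31 at Carnegie stage 14 and E37 at Carnegie stage 18, with 1 library each. Its title names the origin of the somatic cells of the gonad as its subject. The E24 tissue was the trunk of untreated embryos after the yolk sac, amnion, heart, tissue in front of the heart and the posterior growth zone had been cut away, and it was dissociated with trypsin and EDTA. The labels name more than 1 embryo for this library, but the barcodes do not tell them apart, so it was 1 sample, no difference between embryos could be measured and no test was run. Every interval below is counting error within 1 library, in which a gene's level is its summed UMIs scaled to 1000000 UMIs of the same barcodes (CPM).

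Somites are paired blocks of mesoderm beside the neural tube. Each divides into a ventral sclerotome, which forms vertebrae and ribs, and a dorsal epithelial dermomyotome, which forms skeletal muscle and dermis of the back. In mouse and chick, PAX3 and DMRT2 are transcription factors of the dermomyotome, MYF5 and MYOD1 commit its cells to muscle, and MYOG then drives differentiation in the myotome, where the contractile proteins, sarcomeric myosin heavy chains such as MYH8 among them, are made. Because the rule read the same cells that are described, the levels of its genes and the contrast with other barcodes are descriptions and support nothing by themselves.

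Members were slightly deeper than the rest of the library. Their median was 11594 UMIs and 3314 genes per barcode, against 9909.5 UMIs and 3061.5 genes in the other E24 barcodes. Over the libraries, medians ran from 6672.5 to 11391 UMIs per barcode and totals from 40243286 to 115332663 UMIs. The E24 library shared 74, 111 and 71 barcode sequences with the E28, E31 and E37 libraries, and 3, 2 and 1 of these were members.

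The commonest combination was DMRT2 with MYH8 and no other rule gene, in 271 members or 63.2%. PAX3, DMRT2 and MYH8 together were found in 60 members, PAX3 with MYH8 in 36, PAX3 with DMRT2 in 24, and MYH8 with MYOG in 17. The other 21 members were spread over 8 combinations. In all, 405 members held MYH8, 364 DMRT2, 122 PAX3, 29 MYOG, 11 MYF5 and 2 MYOD1. Every one of the 29 MYOG members also held MYH8.

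**Figure D1:**
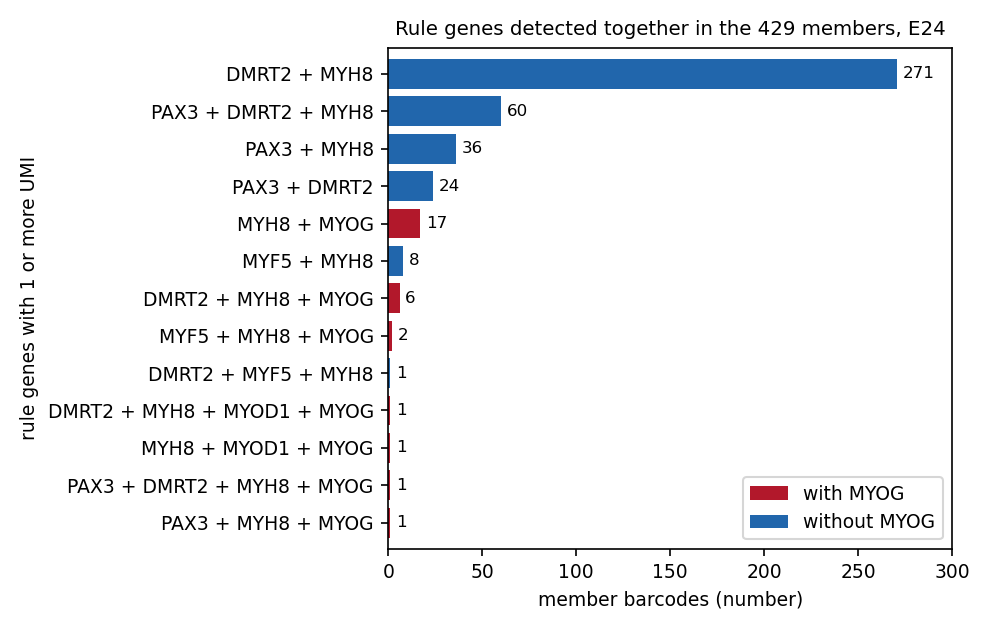
Number of member barcodes (horizontal axis) for each combination of rule genes with 1 or more UMI (vertical axis), with combinations that include MYOG in red and the others in blue. DMRT2 with MYH8 accounts for 271 of the 429 members, and the 24 members with PAX3 and DMRT2 alone are the ones without MYH8.

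MYH8 was therefore the gene on which membership mostly rested, and it was not confined to the members. MYH8 had 404 CPM and was found in 94.4% of members. In the other E24 barcodes it had 14.99 CPM and was found in 5.54%. Endothelial barcodes, which should lack it, had a UMI of MYH8 in 1.77% at a median of 10376 UMIs. After each barcode was thinned to 3500 UMIs the share was 68.5% in members and 0.355% in endothelial barcodes. Of the 971 E24 barcodes with MYH8, 566 were not members. DMRT2 had 149 CPM in members and 3.05 in the other barcodes. Its share was 84.8% in members and 1.42% in endothelial barcodes, or 42.4% and 0.355% after thinning. PAX3, at 25.7 CPM in members and 2.84 in the other barcodes, was found in 28.4% of members and 0.355% of endothelial barcodes, and in 7.69% and 0% after thinning.

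The edge of the rule was not sharp. Of the members, 356 held exactly 2 rule genes and 58 held only 2 UMIs of all rule genes together. Just outside it, 565 barcodes held exactly 1 rule gene and none of the excluded genes: 340 with MYH8, 127 with DMRT2, 91 with PAX3 and 7 with MYOG. FST, which encodes follistatin, an antagonist of activins and of myostatin, had 711 CPM in the members with exactly 2 rule genes and 366 in the barcodes with exactly 1. WNT16, a secreted WNT ligand, had 35.6 CPM inside this edge and 8.90 outside it. A further 77 barcodes had at least 2 rule genes and were removed for SOX2 (40), PAX1 (27) or TBX6 (16), some of them for more than 1. Their median of 15119 UMIs was above that of the members.

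Clustering of all E24 barcodes without the rule and excluded genes placed 375 of the 429 members in 1 of 27 clusters. That cluster, numbered 10, had 1020 barcodes, and the genes leading it included FST, FMOD, MEOX1, RIPPLY1, C1QTNF3, MEOX2, FAP, FOXC2 and TCF15. MYH8 was found in 58.4% and DMRT2 in 42.1% of its barcodes. A second cluster, numbered 11, had 25 barcodes led by MYLPF, ACTC1, TNNI1, TNNC2, DES and TTN, all genes of the contractile apparatus, and 20 of them were members. The other 34 members lay in 12 further clusters, among them 7 in cluster 9, whose leading genes PAX1, FOXC2 and PAX9 are genes of the sclerotome. MYH8 was found in 20% of the 855 barcodes of cluster 9, at 39.7 CPM.

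The label of myotome fitted a small minority of the members. Sarcomere transcripts, summed over 27 genes that did not include MYH8, numbered 6 at the lowest, 60 at the median and 1669 at the highest in the 29 MYOG members. In the 400 members without MYOG they numbered 0, 1 and 40, and in the other E24 barcodes 0, 1 and 674. At least 50 such UMIs were found in 15 MYOG members, in 0 members without MYOG and in 11 of the other E24 barcodes. The 400 members without MYOG are therefore called by the rule and by their leading genes below, and not myotome. MYH8 itself had a median of 12 and a maximum of 46 UMIs in MYOG members, against a median of 3 and a maximum of 24 in members without MYOG, where it was found in 376 barcodes. MYOG was found in 0.709% of endothelial barcodes, or 0.355% after thinning.

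**Figure D2:**
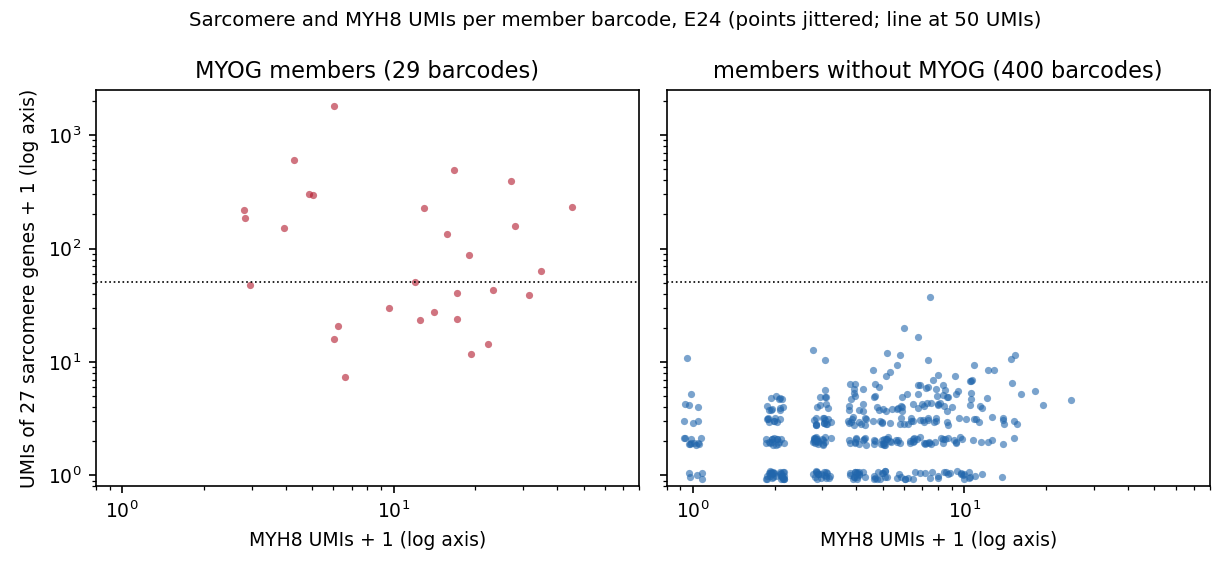
UMIs of 27 sarcomere genes plus 1 (vertical log axis) against UMIs of MYH8 plus 1 (horizontal log axis) for each MYOG member (left, 29 barcodes) and each member without MYOG (right, 400 barcodes); points are jittered slightly and the dotted line marks 50 sarcomere UMIs. The 15 barcodes at or above the line are all MYOG members, while MYH8 reaches 24 UMIs in members without MYOG that lie below it.

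Against the other E24 barcodes, 237 of 13441 genes measured (1.76%) were at 2-fold or more in members and 1839 (13.7%) were at 0.5-fold or less, with rule genes left out. A gene counted as measured if at least 5 UMIs would be expected in the smaller set at equal levels. This contrast is the one the rule used, so the counts describe the members. Of the 20 genes named as highest, several belonged to the contractile apparatus and the neuromuscular junction, and their UMIs came almost wholly from the 29 MYOG members. The fast skeletal troponin C gene TNNC2 was 54.0-fold (interval 45.2 to 64.6) in all members against other barcodes, and 444 of its 454 member UMIs were in MYOG members. The fast regulatory myosin light chain MYLPF was 38.1-fold (35.1 to 41.4), with 1598 of 1610. Cardiac alpha actin ACTC1, which embryonic skeletal muscle also uses, was 13.5-fold (12.4 to 14.7), with 802 of 874. The muscle acetylcholine receptor subunit CHRNA1 was 56.0-fold (37.9 to 84.6), with 96 of 97.

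Without the 29 MYOG barcodes these genes were no longer at 2-fold or more against the other E24 barcodes. Members without MYOG had 193 of 13294 genes (1.45%) at 2-fold or more and 1847 (13.9%) at 0.5-fold or less against the other E24 barcodes, a comparison chosen after the data were seen. Among them ACTC1 was at 1.20-fold (0.935 to 1.53), and the giant spring protein gene TTN was found in 13 of the 400 barcodes. MYLPF was at 0.308-fold (0.158 to 0.541). The other E24 barcodes held 16 with MYOG, and against the 10194 without MYOG, a set also chosen after the data were seen, MYLPF was at 0.520-fold (0.267 to 0.916), no longer past 0.5-fold. Of 18 sarcomere genes measured, only KLHL41, a regulator of muscle thin filaments, was at 2-fold or more, at 3.13-fold (1.86 to 5.02), and 7 were at 0.5-fold or less. Against the 10194 barcodes 0 of the 16 sarcomere genes measured were at 2-fold or more and 6 at 0.5-fold or less. ACTC1 was at 1.56-fold (1.21 to 1.99) there and TNNI1 at 1.96-fold (1.72 to 2.23). Some genes past 2-fold fell below the minimum of expected UMIs and were not counted. Among them were NEB, at 15.7-fold (7.36 to 32.8) with 14 against 20 UMIs, KLHL41, at 6.92-fold (3.97 to 11.6), and TNNC2, at 2.1-fold (0.980 to 4.02). With the MYOG members included, 11 of 20 sarcomere genes were at 2-fold or more and 2 at 0.5-fold or less. Some of them, such as MYH3 with 85 against 28 UMIs, passed the minimum through those members.

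The genes highest in the 400 members without MYOG included FST, FMOD, WNT16, SPAG6, BEST3 and KERA, and these were also found in the rest of cluster 10. FST had 739 CPM in them and 81.0 in the other E24 barcodes, 9.12-fold (8.77 to 9.48). It was found in 97.0% of these members, with a median of 8 UMIs, and in 6.74% of endothelial barcodes, or 82.5% and 2.13% after thinning. FMOD, which encodes fibromodulin, a small proteoglycan that binds collagen, had 176 against 12.3 CPM, 14.3-fold (13.1 to 15.6). KERA, for the related proteoglycan keratocan, had 14.1 against 0.763 CPM, 18.5-fold (13.3 to 25.8). WNT16 had 37.3 against 1.34 CPM, 27.9-fold (22.3 to 34.9), and was found in 25% of these members (10% after thinning) and 0 of 282 endothelial barcodes. SPAG6, an axoneme component of motile cilia, had 61.3 against 2.13 CPM, 28.8-fold (24.2 to 34.3). BEST3, a member of the bestrophin chloride channel family, had 28.1 against 0.854 CPM, 32.9-fold (25.1 to 43.2). BEST3, with 137 against 94 UMIs, and KERA, with 69 against 84, passed the minimum through the UMIs of these members. The 645 barcodes of cluster 10 outside the members had 534 CPM of FST, 115 of FMOD, 18.3 of SPAG6, 12.5 of WNT16, 9.23 of BEST3 and 5.36 of KERA, above the other E24 barcodes as a whole for each of the 6 genes.

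Further named genes were at lower folds. KCNAB1, a regulatory subunit of potassium channels, was at 12.4-fold (10.7 to 14.3), the membrane protease FAP at 11.5-fold (10.3 to 12.9), CYP1B1, a cytochrome P450 that acts on retinol and steroids, at 10.6-fold (9.43 to 11.8), and the collagen chain COL11A2 at 10.2-fold (8.78 to 11.7). CLDN11, a tight junction protein, was at 6.67-fold (6.02 to 7.38). These are the genes that led the contrast the rule itself made.

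The wider dermomyotome list followed the label in part. Of 11 genes measured in members without MYOG, 6 were at 2-fold or more and 1 was at 0.5-fold or less. Over all genes measured the shares were 1.45% and 13.9%. The list had a median of 1.40 on the log2 scale beside -0.07 over all genes measured. The homeobox genes MEOX2 and MEOX1, which act in somites, were at 6.68-fold (5.97 to 7.46) and 5.30-fold (4.89 to 5.74). TCF15, a bHLH factor needed for somites to become epithelial, was at 5.91-fold (5.23 to 6.66). The transcriptional cofactors EYA2 and EYA1 were at 3.55-fold (2.53 to 4.87) and 2.63-fold (2.22 to 3.11). The receptor of migrating muscle precursors MET had 14.96 against 7.83 CPM, 1.91-fold (1.48 to 2.43), and the chemokine receptor CXCR4 was lower at 0.403-fold (0.339 to 0.477). PAX7, which follows PAX3 in the mouse dermomyotome, had 10 UMIs in the 400 barcodes, 1.72-fold (0.807 to 3.27). LBX1, a gene of migrating limb muscle precursors, had 1 UMI and fell below the minimum.

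**Figure D3:**
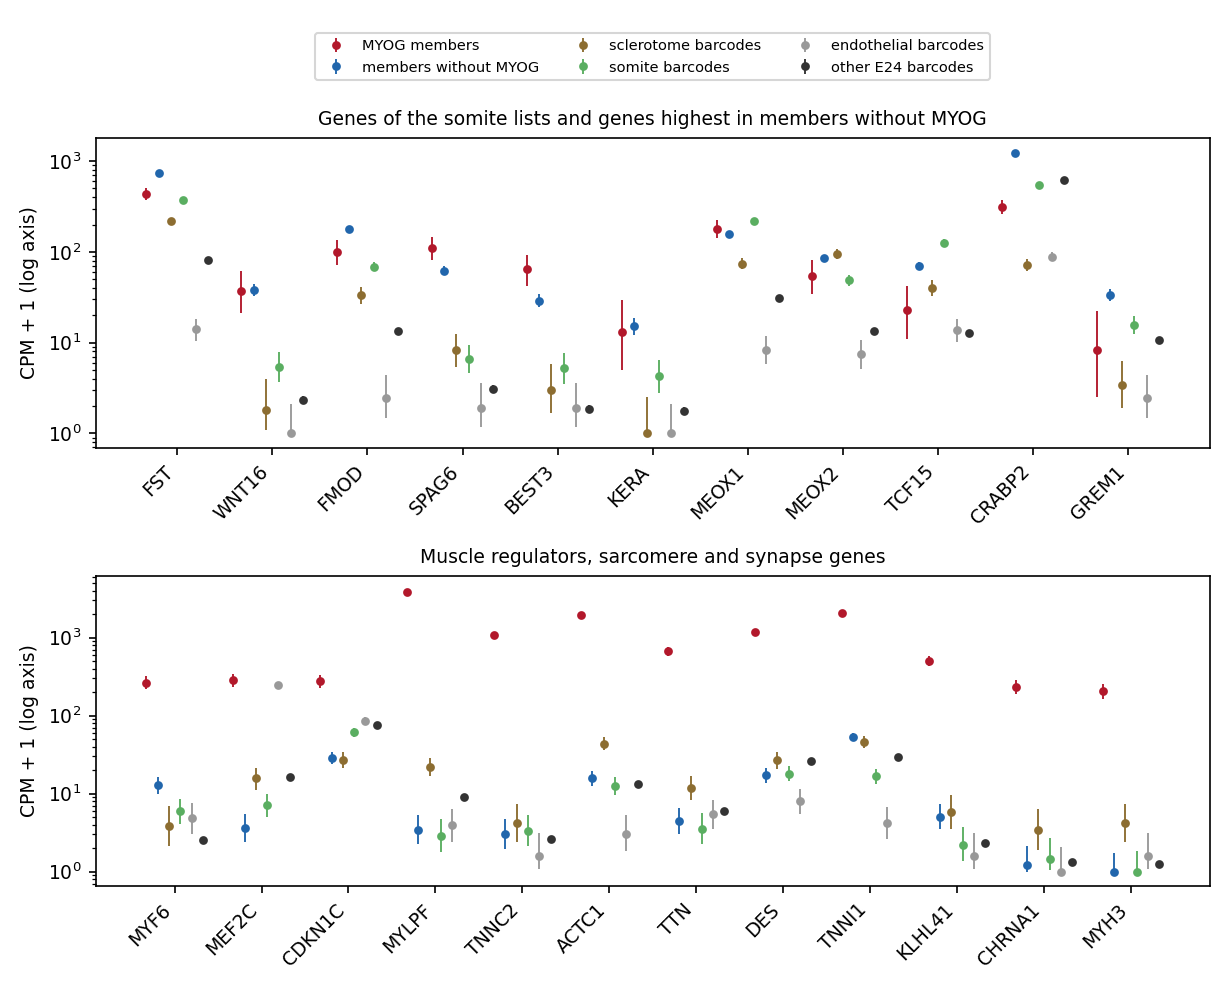
CPM plus 1 (vertical log axis) with exact Poisson 95% intervals for genes (horizontal axis) in 6 sets of E24 barcodes, listed in the legend. FST, WNT16, FMOD, SPAG6, BEST3 and KERA are above sclerotome, endothelial and other E24 barcodes in both kinds of member, while MYLPF, TNNC2, ACTC1, TTN, DES and TNNI1 stand out in MYOG members alone.

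Of the muscle adhesion and coupling genes, some were high in members without MYOG although most sarcomere genes were not. The sarcoplasmic reticulum protein gene TRDN was at 10.4-fold (7.04 to 15.2). It had 42 UMIs in these members and 91 in the other E24 barcodes, and passed the minimum through the members' UMIs. The ryanodine receptor RYR3 was at 4.45-fold (3.16 to 6.15) and the oxygen-binding protein gene MB at 4.40-fold (2.72 to 6.86). SGCD of the dystrophin complex was at 5.77-fold (3.81 to 8.51) and DMD, dystrophin itself, at 2.87-fold (2.32 to 3.53). The cell surface proteins BOC and CDON, which promote muscle differentiation in mouse myoblasts, were at 2.62-fold (2.25 to 3.03) and 2.02-fold (1.65 to 2.44). MYF6, the fourth myogenic regulatory factor, had 11.9 against 1.56 CPM, 7.61-fold (5.55 to 10.3), and was found in 10.8% of these members and 4.26% of endothelial barcodes, or 4.50% and 1.06% after thinning. MEF2C, a partner of the myogenic factors that endothelium also expresses, was lower, at 0.173-fold (0.0921 to 0.297).

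In every signalling list but hedgehog, more genes were at 0.5-fold or less than at 2-fold or more. Over all genes measured in this contrast 1.45% were at 2-fold or more and 13.9% at 0.5-fold or less. Of 20 WNT genes measured, 9 were at 0.5-fold or less, and the WNT target SP5 was alone at 2-fold or more, at 2.51-fold (2.12 to 2.95). Of 19 BMP and TGFB genes 6 were lower and 2 higher, FST and GREM1. GREM1, which encodes the BMP antagonist gremlin, was at 3.32-fold (2.79 to 3.92), and BMP4 was at 0.0659-fold (0.0390 to 0.104). Of 12 retinoic acid genes 5 were lower (ALDH1A1, RARB, RARG, CRABP1 and DHRS3) and 2 higher: ALDH1A2, which makes retinoic acid, at 2.50-fold (2.17 to 2.86), and the cellular binding protein gene CRABP2 at 2.01-fold (1.96 to 2.07). CRABP2 had 1236 against 614 CPM. Of 13 NOTCH genes 6 were lower and 1 higher, the effector HEY2 at 2.48-fold (2.01 to 3.03). The hedgehog coreceptor GAS1 was the 1 of 8 hedgehog genes at 2-fold or more, at 2.23-fold (2.06 to 2.41). Of 14 FGF genes 5 were lower and 0 higher.

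Genes of other cell types were mostly low in members without MYOG, where 13.9% of all genes measured were at 0.5-fold or less. All genes measured were at 0.5-fold or less for endothelium (9 of 9), blood (6 of 6), lateral plate (7 of 7), intermediate mesoderm (6 of 6), notochord (5 of 5) and surface ectoderm (6 of 6). The same held for 8 of 11 neural tube, 6 of 7 neural crest, 6 of 10 presomitic, 4 of 5 heart muscle, 3 of 5 smooth muscle and 2 of 5 tendon and dermis genes. NES, an intermediate filament gene of neural and muscle precursors, was the 1 neural tube gene at 2-fold or more. Among genes that define heart muscle, NKX2-5 had 1 UMI and MYH6, MYL2 and TBX20 had 0 in all 429 members, where 3 counts would be 0.567 CPM. None of these was among the heart muscle genes at 0.5-fold or less, which were TBX5, NPPA, MYL7 and RYR2. The heart had been cut away from this tissue, so such counts do not by themselves set the members apart. Of 8 sclerotome genes, NKX3-2 and SOX9 were at 0.5-fold or less. The embryonic globins HBZ and HBE1 were at 0.0180-fold (0.0157 to 0.0206) and 0.0284-fold (0.0254 to 0.0316). ALAS2, the first enzyme of haem synthesis in red cells, had 0 UMIs in the 400 members, at least 28.1-fold lower. The part of free globin RNA or of these other cell types in the differences above was not tested. The immediate early genes of the stress list were also lower, FOS at 0.212-fold (0.166 to 0.266) and EGR1 at 0.270-fold (0.185 to 0.380), 6 of the 10 stress genes in all.

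The 29 MYOG members were the ones with a muscle programme. The comparison of these with the 400 members without MYOG was also chosen after the data were seen. Of 6977 genes measured, 261 (3.74%) were at 2-fold or more in MYOG members and 651 (9.33%) were at 0.5-fold or less. Of the sarcomere list 13 of 14 genes were at 2-fold or more, with a median log2 difference of 6.55 beside -0.04 over all genes measured, and the troponin, myosin light chain and actin genes led it. The other genes of the 30 with a row fell below the minimum. That minimum used the UMIs of both sets, so genes nearly absent outside MYOG members passed it through them. MYLPF, with 1598 against 12 UMIs, and MYH3, with 85 against 0, are examples. The minimum therefore set this count and median in part, and they are a description. MYLPF had 0, 6 and 589 UMIs per barcode (lowest, median, highest) in MYOG members and 0, 0 and 2 in members without MYOG, or 3887 against 2.46 CPM, 1580-fold (902 to 3065). ACTC1 had 0, 13 and 187 UMIs per barcode in MYOG members and 0, 0 and 8 in those without, 132-fold (104 to 171). DES, the muscle intermediate filament desmin, had 1, 15 and 90 UMIs in MYOG members and 0, 0 and 8 in those without, 73.2-fold (57.6 to 94.0). DES was found in all 29 MYOG members and in 13.5% of members without MYOG, so the ranges overlapped although the medians were far apart.

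Transcripts of fast and slow, skeletal and cardiac forms of the contractile proteins were all found in the pooled UMIs of the MYOG members. Whether single barcodes held several forms was not counted. The slow skeletal troponin genes TNNI1 and TNNT1 were at 39.2-fold (34.0 to 45.2) and 24.8-fold (20.8 to 29.8), the cardiac troponin T gene TNNT2 at 21.3-fold (16.4 to 27.8), the slow and cardiac TNNC1 at 196-fold (96.5 to 463) and the fast TNNC2 at 527-fold (284 to 1106). MYH3, the embryonic myosin heavy chain, had 85 UMIs in MYOG members and 0 in the others, at least 336-fold higher. A single MYOG member held 1669 of the sarcomere UMIs, and without it TNNC1 was at 63.2-fold, TNNC2 at 337-fold and MYLPF at 1062-fold, while MYH3 had 109 in place of 207 CPM. The other named higher genes of this comparison moved by less than 1.5 times without it.

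The regulators around MYOG were uneven. MYF6 had 0, 2 and 15 UMIs per barcode in MYOG members and 0, 0 and 4 in members without MYOG, or 265 against 11.9 CPM, 22.3-fold (16.1 to 31.2). It was found in 82.8% of MYOG members. MYF5, by contrast, was found in 2 of the 29 and MYOD1 in 2 of the 29, at 1 UMI each. MEF2C was at 106-fold (59.6 to 205), and CDKN1C, a cyclin-dependent kinase inhibitor, at 9.93-fold (7.67 to 12.9), at 275 against 27.7 CPM. CDH15, which encodes the muscle cell adhesion protein M-cadherin, was at 23.7-fold (13.9 to 41.6), CHRNA1 had 96 UMIs in MYOG members and 1 in the others, and TGFB2, a transforming growth factor, was at 7.57-fold (5.66 to 10.1). The muscle list of energy metabolism had 3 of 6 genes higher and 1 lower, beside 3.74% and 9.33% of all genes measured. The creatine kinase CKB, at 7.68-fold (6.55 to 8.99), was among the higher. The lower was the fatty acid binding protein gene FABP3 at 0.337-fold (0.108 to 0.802). NES was at 3.63-fold (3.23 to 4.06).

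S phase genes were lower in MYOG members and genes of G2 and mitosis were less so. Of 12 S phase genes 10 were at 0.5-fold or less, beside 9.33% of all genes measured, with a median log2 difference of -1.67. Of 12 G2/M genes 0 were past 2-fold in either direction, with a median of -0.44. PCNA, the sliding clamp of DNA polymerase, was at 0.300-fold (0.215 to 0.407), the helicase subunit MCM3 at 0.305-fold (0.188 to 0.469) and the ribonucleotide reductase subunit RRM2 at 0.303-fold (0.207 to 0.427). TOP2A, a topoisomerase of dividing cells, was at 0.778-fold (0.634 to 0.945), and MKI67 was at 0.610-fold (0.423 to 0.852). In members without MYOG, by comparison with other E24 barcodes, 0 of the 24 cell cycle genes were past 2-fold in either direction.

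Some genes that were high in members without MYOG were also found in MYOG members. FST had 438 CPM in MYOG members and 739 in members without MYOG, MEOX1 180 against 157, WNT16 36.5 against 37.3 and SPAG6 109 against 61.3. The pooled level of FST hides an uneven spread. In cluster 11 it was found in 10 of 19 MYOG members, with a median of 1 and a maximum of 44 UMIs. In cluster 10 it was found in 9 of 10, with a median of 2.5 and a maximum of 28. TCF15 was lower in MYOG members, at 0.315-fold (0.143 to 0.605). The inhibitors of bHLH factors were lower as well: ID3 had 122 against 609 CPM, 0.1997-fold (0.148 to 0.264), ID2 was at 0.279-fold (0.191 to 0.394) and ID1 at 0.364-fold (0.232 to 0.545). CRABP2 was at 0.252-fold (0.210 to 0.300) and GREM1, with 3 UMIs in MYOG members, at 0.225-fold (0.0460 to 0.671). The growth factor gene FIGF (VEGFD) had 0 UMIs in MYOG members and 175 in the others, at least 4.92-fold lower. HEY2 had 0 against 108 UMIs, and BOC had 1 against 198 UMIs, 0.0599-fold (0.00151 to 0.338). DMRT2 was found in 8 of 29 MYOG members and PAX3 in 2, but members without MYOG needed one of these or MYF5 to qualify, so the rule itself set that difference.

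The MYOG members fell into both clusters. The 10 in cluster 10 had 1 to 5 MYOG UMIs with a median of 1, and 6 to 47 sarcomere UMIs with a median of 21.5. The 19 in cluster 11 had 1 to 30 MYOG UMIs with a median of 9, and 21 to 1669 sarcomere UMIs with a median of 198. MYH8 was similar between them, with medians of 10.5 UMIs in the 10 and 12 UMIs in the 19. The 15 barcodes with at least 50 sarcomere UMIs were all in cluster 11. The clustering used the sarcomere genes, so this order of values is a description.

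Members without MYOG were set side by side by PAX3 for a few genes only, and no comparison over all genes was run. FST had 702 CPM in the 120 with PAX3 and 756 in the 280 without it, FMOD 152 against 187, MEOX1 152 against 160 and TOP2A 338 against 337. MYH8 had 230 CPM in those with PAX3 and 415 in those without, which the rule sets in part, since a barcode without PAX3 and MYOG almost always needed MYH8.

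The planned comparison within the members set the 405 with MYOG or MYH8 against the 24 with PAX3 and DMRT2 alone. Of 6028 genes measured, 340 (5.64%) were at 2-fold or more in the 405 and 55 (0.912%) at 0.5-fold or less. Most of the named higher genes were sarcomere genes carried by the 29 MYOG members, TNNI1 at 8.27-fold (4.18 to 19.2) and DES at 8.50-fold (3.30 to 31.3) among them. SPAG6 had 344 UMIs in the 405 and 0 in the 24, at least 6.94-fold higher, and BEST3 had 163 and 0, at least 3.29-fold higher. SPAG6 and BEST3 were each found in 29.3% of the 280 members without MYOG and PAX3. CYP1B1 had 464 UMIs in the 405 and 1 in the 24, 28.1-fold (5.02 to 1112). The 3 named lower genes were PEG3, an imprinted zinc finger gene, at 0.364-fold (0.283 to 0.474), the lipid carrier APOE at 0.382-fold (0.304 to 0.486) and SAT1, an enzyme of polyamine breakdown, at 0.450-fold (0.360 to 0.569). A planned subset of members with MYF5 or MYOD1 but neither MYOG nor MYH8 held 0 barcodes, so it was not compared.

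Sclerotome barcodes, the other derivative of the somite in the library, were taken as the 203 with PAX1 and PAX9 and without SOX2 and TBX6. Against them 583 of 11247 genes (5.18%) were at 2-fold or more in members and 409 (3.64%) at 0.5-fold or less. Higher in members were RPRM, a cell cycle arrest gene, at 69.3-fold (19.0 to 575), CRABP2 at 16.3-fold (14.1 to 19.1), WNT16 at 45.7-fold (12.5 to 380), RAB3IP at 10.6-fold (7.79 to 14.8) and the caudal homeobox gene CDX1 at 25.3-fold (9.73 to 93.6). The secreted WNT inhibitor NOTUM had 67 UMIs in members and 0 in sclerotome barcodes, at least 10.4-fold higher, and KERA was at least 11.4-fold higher. Of the dermomyotome list 6 of 9 genes were at 2-fold or more, among them EYA1 at 4.12-fold (2.56 to 7.02). MEOX2 was not among them, at 0.873-fold (0.742 to 1.03).

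Most sclerotome genes were lower in members than in sclerotome barcodes. Of 8 sclerotome genes 6 were at 0.5-fold or less, the homeobox gene NKX3-2 at 0.0173-fold (0.00625 to 0.0384) and SOX9, the regulator of cartilage, at 0.0721-fold (0.0474 to 0.106) among them, and PAX9, which chose the sclerotome barcodes, is 1 of the 6. The matrix protein gene DPT had 3 UMIs in members and 112 in sclerotome barcodes, 0.0124-fold (0.00252 to 0.0372). Of 8 hedgehog genes 4 were lower and 2 higher, with a median log2 difference of -0.66, which was 0.24 over the 6 genes measured with at least 20 expected UMIs. The hedgehog receptor and target PTCH1 was at 0.312-fold (0.262 to 0.372), GLI1 at 0.290-fold (0.169 to 0.490) and HHIP at 0.297-fold (0.148 to 0.578). The 2 higher were GLI3 at 2.06-fold (1.47 to 2.96) and GAS1 at 2.46-fold (2.05 to 2.97). Of 15 WNT genes 4 were higher and 1 lower, beside 5.18% and 3.64% of all genes measured: the WNT receptor FZD7 at 2.18-fold (1.86 to 2.58), SP5 at 8.81-fold (4.53 to 19.6), NKD1 at 2.72-fold (1.72 to 4.49) and AXIN2 at 2.16-fold (1.37 to 3.55), against the secreted SFRP2 at 0.302-fold (0.255 to 0.356). Of the BMP and TGFB list 7 of 16 genes were higher and 4 lower, GREM1 at 12.4-fold (5.59 to 34.4) and BMP4 at 0.209-fold (0.113 to 0.373). The 4 blood genes measured were all at 0.5-fold or less in members, HBZ at 43.3 against 1216 CPM. MYH8, a rule gene, had 404 CPM in members and 60.3 in sclerotome barcodes, where it was found in 29.1%, or 14.8% after thinning.

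HOX genes, which mark position from head to tail, were compared by paralogue group. Members had 63.1 against 131 CPM in the other E24 barcodes for group 6, 91.5 against 184 for group 7, 69.6 against 171 for group 8 and 112 against 283 for group 9. For group 10 the values were 5.67 in members and 65.9 in the others, and HOXC10 had 0 UMIs in members against 1366 in the others, at least 21.9-fold lower. Groups 4 and 5 differed less, at 191 against 252 and 74.8 against 76.5. Sclerotome barcodes had levels near those of members for group 9, at 96.6, while 345 somite barcodes (TCF15 and MEOX1 without PAX1, SOX2 or TBX6, and not members) had 284. For group 10 sclerotome barcodes had 27.7 and somite barcodes 7.03. MYOG members were lower than members without MYOG for groups 2, 4 and 5, at 55.9 against 97.3, 146 against 194 and 41.3 against 77.7, and for groups 6 to 9, at 4.86 against 68.0, 24.3 against 97.1, 36.5 against 72.3 and 26.8 against 119. For groups 1 and 3 the MYOG members were higher, at 63.2 against 55.9 and 168 against 114.

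**Figure D4:**
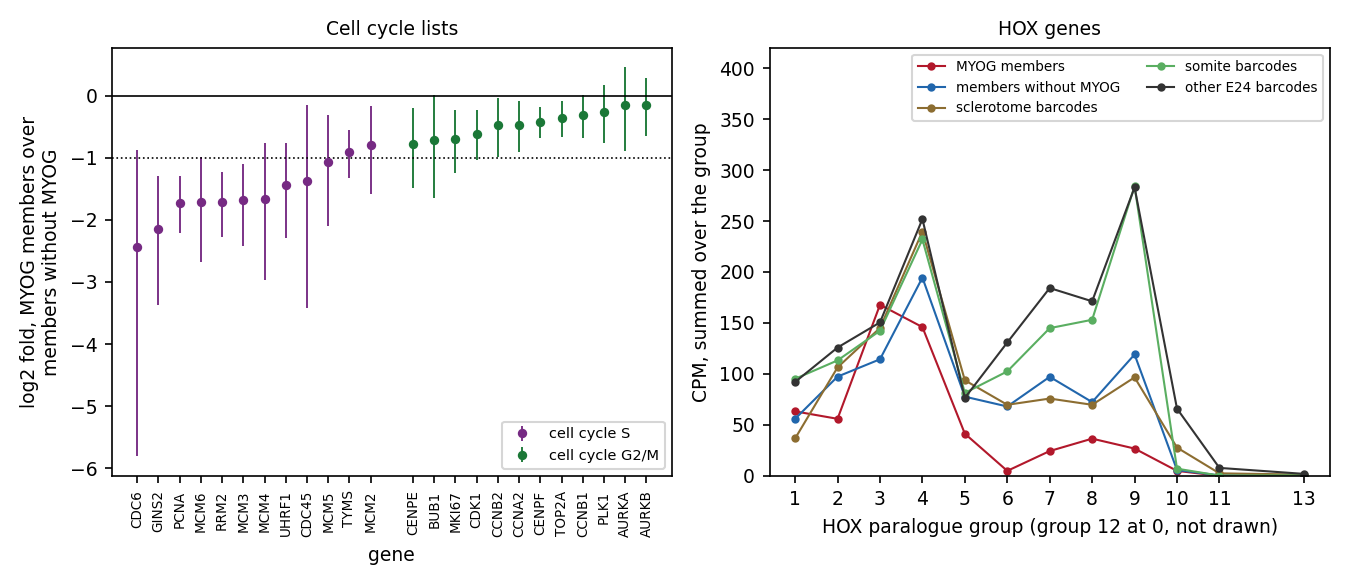
Left, log2 fold of each S phase and G2/M gene in MYOG members over members without MYOG, with exact 95% intervals; the dotted line is at 0.5-fold. Right, CPM summed over each HOX paralogue group in 5 sets of E24 barcodes. Of the S phase genes 10 of 12 lie below the dotted line. MYOG members have the lowest summed level of HOX groups 2 and 4 to 9, and the highest of group 3. They hold 2 UMIs of group 10 and 0 of group 11, too few to rank these groups.

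The same rule found 0 members at E28, 27 of 6661 barcodes at E31 (0.405%, interval 0.267 to 0.589%) and 0 at E37. A count of 0 allows a share of up to 0.0597% at E28 and 0.0566% at E37. The tissue taken differed, since E28 to E37 samples were built round the urogenital ridge, so the stages are set side by side and not compared. Of the 27 barcodes at E31, 14 held MYOG and 12 held PAX3 with DMRT2 alone. MYH8 had 2 UMIs in the 27, 7.70 CPM, and 3 UMIs in the whole E31 library. In the 14 MYOG members of E31, MYF6 had 569 CPM, TTN 464, MYLPF 450, MEOX1 197 and ACTC1 162. These pooled levels were uneven over the barcodes. MYLPF was found in 5 of the 14, with 44 of its 64 UMIs in 1 barcode, and ACTC1 in 6. MYF6 and MEOX1 were each found in 11, MYF6 with up to 27 of its 81 UMIs in 1 barcode. FST had 42.1 CPM in these 14 and WNT16, SPAG6, BEST3 and KERA had 0 UMIs, where 3 counts would be 21.1 CPM.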

How the data were processed

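Droplet 3′ RNA libraries of cynomolgus monkey embryos were used as the authors deposited them: raw UMI counts per gene and barcode, with cells already called, made by Cell Ranger 2.1.0 per the submitters' processing notes. The labels' protocols name both v2 chemistry and v3 kits. Neither a genome build nor an annotation is given in the sources used here. Each table has 26223 gene rows. The row without a name held 0 UMIs (0%). Of 9499 rows named only by a LOC identifier, 3867 were found in a RefSeq name table of assembly T2T-MFA8v1.1 and 673 took its symbol, MYH8 and MYH3 among them, so MYH8 rests on that match.

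UMIs were summed over barcodes and scaled to CPM. The 95% intervals cover counting error only: conditional binomial for a ratio, Poisson for a level, Clopper-Pearson for a share of barcodes. A sum of 0 was bounded with 3 counts over the group. Genes at 2-fold or more, or at 0.5-fold or less, were counted where at least 5 UMIs were expected in the smaller set. List medians used a pseudocount of 0.5 UMIs. Named genes were the 20 highest and 10 lowest (10 and 10 within the members and against sclerotome), ranked by the bound of the interval closest to 1. They needed a symbol and 50 or more UMIs in the set where they were higher, without rule, ribosomal and LOC genes. Genes of 32 lists were added. Members and lists were chosen with earlier results of these data known. Scrublet called 0 doublets, which had not worked, so barcodes were kept, and removal of the 906 with the highest scores (0.8% per 1000 barcodes) was an alternative. Clusters came from 2000 variable genes without rule and excluded genes, 30 principal components, 15 neighbours and Leiden resolution 1 (scanpy 1.11.5, igraph 0.11.9, scipy 1.17.1, Python 3.11.15). The counting was tested on simulated data.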

Additional observations from a re-analysis of the deposited data

How the results depend on the processing

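No replicate could be left out and no paired analysis was possible because each stage has 1 library. The rule decided how many barcodes were members: 73 with at least 3 rule genes, 176 after thinning to 3500 UMIs (166 of them among the 429) and 506 without the excluded genes. Counts of genes moved with the minimum of expected UMIs. With 1 expected UMI, 788 genes were higher in members, 785 higher and 732 lower in members with MYOG or MYH8, 921 higher and 1108 lower than in sclerotome barcodes, 1077 higher and 1127 lower in MYOG members, and 693 higher in members without MYOG. With 20, the counts were 140 higher and 912 lower in members, 20 and 5 in those with MYOG or MYH8, 203 and 135 against sclerotome, 64 and 115 in MYOG members, and 118 and 891 in members without MYOG. With at least 3 rule genes, 1079 were lower in members, 349 higher than in sclerotome, and 118 higher and 987 lower in members without MYOG; the members with PAX3 and DMRT2 alone could not be compared, as 0 remained. After thinning, 180 and 21 genes were higher and lower in members with MYOG or MYH8, and 643 lower than in sclerotome. No named gene reversed under any alternative run, but 22 of 30 named genes moved outside their interval under at least 1 alternative in members (18 of them with at least 3 rule genes), 13 of 30 in MYOG members, 19 of 30 in members without MYOG, 8 of 20 against sclerotome and 4 of 13 in members with MYOG or MYH8. The median log2 difference of the sarcomere list in MYOG members ran from 5.29 to 6.91 over 8 alternatives and that of S phase genes from -1.83 to -1.33; in members without MYOG the dermomyotome list ran from 1.17 to 1.84 and the sarcomere list from -1.23 to -0.48 over 8. The hedgehog median against sclerotome ran from -0.69 to 0.24. Depth limits MYF5, MYOD1, PAX7 and LBX1, which had few UMIs, and the 29 and 24 barcodes of the smallest sets.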

Other observations

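Barcodes with muscle genes were also found outside the members. Of 45 E24 barcodes with MYOG, 16 were not members: 9 were removed for SOX2, PAX1 or TBX6 and 7 held no second rule gene. These 16 had 1340 CPM of MYLPF and 1168 of ACTC1, and 0, 33.5 and 674 sarcomere UMIs (lowest, median, highest). Of the 11 other E24 barcodes with at least 50 sarcomere UMIs, 5 held MYOG and 6 did not.

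Of the 566 MYH8 barcodes that were not members, 242 were in cluster 10 and 164 in cluster 9. The 645 barcodes of cluster 10 outside the members had 534 CPM of FST, 171 of MEOX1, 115 of FMOD and 12.5 of WNT16, with MYH8 at 146. FST had 207 CPM in cluster 9 and WNT16 had 0.449.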
